A study of Mus musculus with 4 samples.

Results

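Endothelial genes were examined in the acid-secreting part of the mouse stomach, the gastric corpus. The 37 genes form a list of known markers and regulators of the cells that line blood and lymphatic vessels, taken by gene symbol, with no threshold on measured values. This list and the other gene lists below were chosen with earlier results of these data known. Each gene was represented by its probe set with the highest mean over the 4 arrays, among probe sets annotated to a single gene. Of the 37, 36 were measured, each by 1 probe set, out of 22180 genes in all. Rasip1, a small GTPase effector needed for vessel lumens, had no such probe set and was not analysed here.

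Adult mice of 8 to 10 weeks received daily intraperitoneal injections over 14 days, and total RNA of the corpus was hybridised to 1 array per group. The 4 groups were wild-type C57BL/6 mice (WT) given saline vehicle, WT given metformin at 300 mg/kg, AMPK KO mice given vehicle and AMPK KO mice given metformin. The KO mice carried Atp4b-cre with Prkaa1fl/fl and Prkaa2fl/fl, so the genes of both catalytic subunits of AMPK, the AMP-activated kinase that senses cellular energy, were deleted where the parietal cell promoter Atp4b drives Cre, and the deletion was not directed at endothelial cells. Their background was mixed, with FVB as well as C57BL/6 ancestry, unlike the WT mice, so effects of genotype and background cannot be told apart. Littermates served as controls where possible, and how many mice contributed to an array is not stated in the labels. Values are log2 expression. With 1 array in a group, differences between arrays carry no replicate error.

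Endothelial cells line every vessel. They are kept together by junction proteins such as VE-cadherin, grow and branch under vascular endothelial growth factor (VEGF), angiopoietin and Notch signals, and owe their identity to transcription factors of the ETS and SOX families. In the gastric mucosa a dense network of fenestrated capillaries surrounds the glands. The question the design poses is what metformin changes with and without AMPK in parietal cells, and the vascular genes here describe a cell type other than the one targeted.

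Known corpus genes were well above the filter value described next on every array, with a mean log2 level of 9.75 to 10.35 over 13 parietal cell genes and of 11.12 to 11.21 over 5 chief cell genes. The targeted genes had their lowest values on the KO vehicle array, at 8.18 for Prkaa1 and 7.19 for Prkaa2, against 9.46 and 8.90 on the WT vehicle array. On the metformin arrays they were at 8.66 and 7.52 in KO and 8.90 and 8.02 in WT. Correlation over genes was lowest for the pair of vehicle arrays (r = 0.905) and otherwise 0.950 to 0.971.

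A low-value filter kept the 11090 genes whose mean over the arrays reached the median of all genes (5.03). It kept 29 of the 36 measured endothelial genes, and 1 of these, Sox17, reached it only with its highest array included. The 7 under the filter were Angpt2, Dll4, Aplnr, Cldn5, Icam2, Vwf and Prox1, and their differences are not read as folds. A gene was called higher or lower when 2 arrays differed by 1 or more on the log2 scale, which is 2-fold.

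The clearest pattern was a lower level of most endothelial genes on the KO vehicle array. Of the 29 genes, 18 (62.1%) had their lowest value on that array, against 44.3% of all genes past the filter, and 21 (72.4%) had their highest value on the WT vehicle array, against 46.2%. The mean log2 level over the 29 was 6.52 in WT with vehicle, 6.37 in WT with metformin, 6.04 in KO with vehicle and 6.23 in KO with metformin. In whole corpus RNA, fewer endothelial cells and less RNA per endothelial cell cannot be told apart. Over all genes, too, the KO vehicle array was the lowest most often. Its correlation with the WT vehicle array was the lowest of any pair of arrays (r = 0.905). Whether array or RNA quality, other tissue content or mouse background contributed to the endothelial values was not tested.

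**Figure D1:**
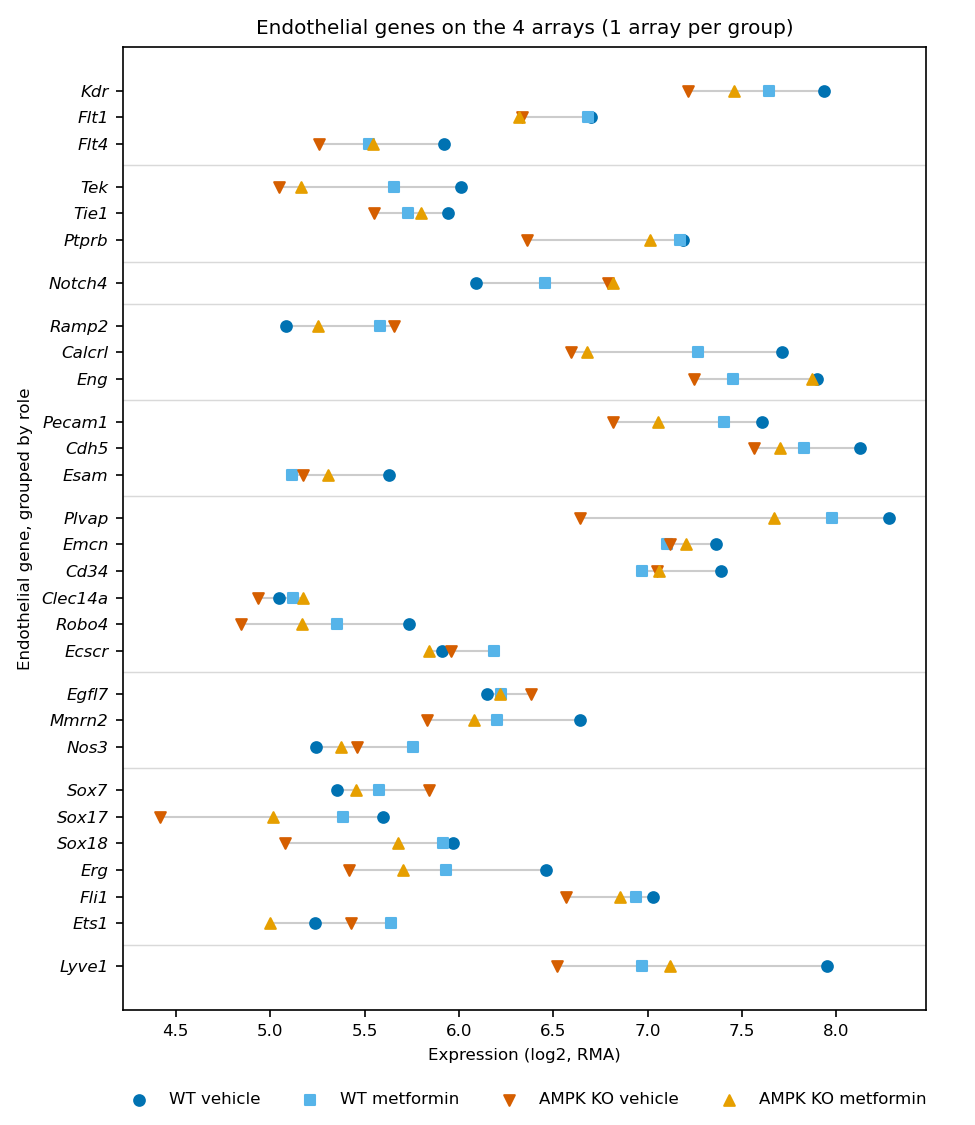
Log2 expression of the 29 endothelial genes past the filter on each of the 4 arrays (1 array per group), grouped by role, with a grey line from the lowest to the highest array. The KO vehicle array (downward triangles) is lowest for 18 genes and the WT vehicle array (circles) highest for 21.

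KO against WT under vehicle compared the levels of these genes in corpus RNA between 1 KO array and 1 WT array. The 29 genes had a median difference of -0.56, while the median of all 11090 genes was -0.22, a gap of -0.34. Over all 36 measured members the median was -0.46. Of the 29, 5 (17.2%) were at least 2-fold lower, where 8.12% of all genes were, and 0 were 2-fold higher, where 2.31% were. The 5 were Plvap, Lyve1, Sox17, Calcrl and Erg. Without Sox17, which passed the filter only through the WT vehicle array, 4 of 28 (14.29%) were lower and the median was -0.51. Negative differences were found for 22 of the 29, where 66.92% of all genes were negative. The other 7 were Notch4 (0.70), Ramp2 (0.57), Sox7 (0.49), Egfl7 (0.23), Nos3 (0.22), Ets1 (0.20) and Ecscr (0.05).

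Plvap had the largest difference of the 29. It encodes the protein that forms the diaphragms of fenestrae and caveolae, the pores of permeable capillaries. Its log2 values were 8.28 with vehicle and 7.98 with metformin in WT, and 6.64 and 7.67 in KO. The KO vehicle array thus stood below the other 3, by 1.64 from WT vehicle (3.11-fold lower). With metformin the KO value was higher by 1.03 (2.04-fold), while in WT it differed by -0.30.

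The other surface glycoproteins and guidance receptors covered a wide range. Robo4, a stabilising receptor of the Roundabout family, differed by -0.89 in KO against WT under vehicle, and its KO vehicle value (4.84) was below the filter value. Emcn, the sialomucin endomucin of capillaries and veins, differed by -0.25, and Cd34, a sialomucin also found on blood progenitors and some stromal cells, by -0.34. Clec14a, a lectin-like receptor, was at -0.11, and its KO vehicle value (4.94) was also below the filter value. Ecscr, a regulator of endothelial migration, was at 0.05. Plvap and Robo4 were therefore far from Emcn on the same 2 arrays.

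The receptors for VEGF were all lower in KO under vehicle, and none reached 2-fold. Kdr (VEGF receptor 2), the main signalling receptor for VEGF-A, had log2 values of 7.93 with vehicle and 7.64 with metformin in WT, and 7.21 and 7.46 in KO. Its vehicle difference was -0.72, and the metformin arrays lay between the 2 vehicle arrays. Flt4 (VEGF receptor 3), which binds VEGF-C and VEGF-D and marks lymphatic vessels, differed by -0.66, and Flt1 (VEGF receptor 1), which also acts as a decoy for VEGF-A, by -0.36. Under metformin Flt4 was at 0.03 while Flt1 was again at -0.36.

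In the angiopoietin-Tie system, Tek was the gene with the largest vehicle difference past the filter (-0.97), just short of 2-fold. Tek encodes Tie2, the angiopoietin receptor, and its partner receptor Tie1 differed by -0.39. Ptprb, the endothelial phosphatase VE-PTP that acts on Tie2 and VE-cadherin, had log2 values of 7.19 with vehicle and 7.17 with metformin in WT, and 6.36 and 7.01 in KO. Only the KO vehicle array was low for Ptprb, by -0.83 from WT vehicle, and metformin in KO gave 0.65. Angpt2, a ligand that can antagonise Tie2, lay between 3.01 (KO vehicle) and 3.96 (WT vehicle), under the filter on all 4.

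Among peptide hormone and TGF-beta family receptors, the 2 subunits of the adrenomedullin receptor differed in opposite directions on the vehicle arrays and were both lower in KO on the metformin arrays. Calcrl, the receptor subunit, had log2 values of 7.71 with vehicle and 7.27 with metformin in WT, and 6.60 and 6.68 in KO. Both KO arrays were below both WT arrays, by 1.11 under vehicle (2.16-fold lower) and 0.59 under metformin. Ramp2, the accessory protein that gives Calcrl its affinity for adrenomedullin, had 5.09, 5.58, 5.66 and 5.25 on the same arrays and was highest in KO vehicle, with a KO against WT difference of 0.57 under vehicle and -0.33 under metformin. Eng, the endoglin coreceptor for BMP9, differed by -0.65 under vehicle and 0.42 under metformin. Aplnr, the apelin receptor, ranged from 4.22 to 4.79, under the filter.

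Promoter sequence was examined because the ETS and SOX factors in the list are known to bind vascular genes. RefSeq promoter windows of 300 bases (250 before the start site and 50 after it, build GRCm38.p6) matched 17 of the 36 measured members. The ETS letters AGGAAGT or CGGAAGT, on either strand, were in the windows of 3 of the 17 (17.6%) and of 17.0% of all 27025 genes with a window. The SOX letters AACAAT were in 4 of the 17 (23.5%, Calcrl, Emcn, Erg and Tek) against 12.2%, and the FOX letters GTAAACA in 0 against 4.05%. Where a gene had several start sites, a match in any window counted. Of the 4 members with a window and the largest vehicle differences (Calcrl, Erg, Tek and Robo4), the outermost start sites of Calcrl and Tek carried a SOX match within the 250 bases upstream. These are printed to show where the matched letters lie, in capitals, and a match is not evidence of binding.
Calcrl: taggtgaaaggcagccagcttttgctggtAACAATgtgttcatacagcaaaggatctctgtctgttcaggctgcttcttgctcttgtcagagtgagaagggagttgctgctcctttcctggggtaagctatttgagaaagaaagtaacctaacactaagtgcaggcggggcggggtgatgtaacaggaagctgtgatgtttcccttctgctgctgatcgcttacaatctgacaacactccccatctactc
Tek: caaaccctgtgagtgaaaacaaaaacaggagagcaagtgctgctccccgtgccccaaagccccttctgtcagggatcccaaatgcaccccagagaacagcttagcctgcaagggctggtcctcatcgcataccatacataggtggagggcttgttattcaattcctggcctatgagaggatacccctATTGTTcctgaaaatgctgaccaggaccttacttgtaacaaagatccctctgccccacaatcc
The Calcrl stretch is chr2:84425267-84425516 on the minus strand, with the match 221 to 216 bases before the start site. The Tek stretch is chr4:94739039-94739288 on the plus strand, with AACAAT on the opposite strand, read here as ATTGTT, at 63 to 58 bases before the start. The outermost Erg and Robo4 stretches held none of the letters searched.

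Transcription factors of the SOX and ETS families did not differ together. Sox17, which directs arterial identity, had log2 values of 5.60 with vehicle and 5.38 with metformin in WT, and 4.42 and 5.02 in KO. It differed by -1.18 between the vehicle arrays, and no fold is given because the KO value is under the filter value. Sox18, which acts in vascular and lymphatic development, differed by -0.89, whereas Sox7, the remaining SOXF factor, differed by 0.49. On the vehicle arrays the SOXF genes were thus split, with Sox17 and Sox18 lower and Sox7 higher in KO.

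Erg, an ETS factor that maintains endothelial identity and junctions, had log2 values of 6.46 with vehicle and 5.93 with metformin in WT, and 5.42 and 5.70 in KO. Its WT vehicle value was the highest and the other 3 lay within a narrower range, with a vehicle difference of -1.04 (2.06-fold lower). Fli1, an ETS factor shared with blood cells, differed by -0.46, and Ets1, which lymphocytes also express, by 0.20. Under metformin all 6 transcription factors were lower in KO than in WT, where 46.86% of all genes were. They ranged from -0.64 for Ets1 to -0.08 for Fli1, and none was lower by 2-fold.

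Of the 5 junction and adhesion genes measured, the 3 past the filter were lower in KO under vehicle, none by 2-fold. Cdh5, which encodes VE-cadherin of the adherens junctions, had log2 values of 8.13 with vehicle and 7.83 with metformin in WT, and 7.57 and 7.70 in KO. Its difference was -0.56, equal to the median of the 29. Pecam1, the CD31 adhesion molecule also carried by platelets and leukocytes, differed by -0.79, and Esam, an endothelial adhesion molecule also found on platelets, by -0.45. The tight junction gene Cldn5 (3.47 to 4.10) and the adhesion molecule Icam2 (4.07 to 4.62) stayed under the filter value on all 4 arrays. Under vehicle Cldn5 was at 3.47 in WT and 4.03 in KO, and Icam2 at 4.61 and 4.62. At these levels no difference or lack of one is read.

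Secreted proteins and nitric oxide synthase did not share a direction. Mmrn2, an endothelial matrix glycoprotein that binds Clec14a, differed by -0.81 in KO under vehicle. Egfl7, a secreted factor of developing vessels, was nearly flat, at 6.15 with vehicle and 6.22 with metformin in WT, and 6.38 and 6.22 in KO. Nos3, the endothelial nitric oxide synthase, differed by 0.22, and its highest value was on the WT metformin array (5.76). Vwf, the clotting factor stored in Weibel-Palade bodies, ranged from 4.50 to 4.95, under the filter.

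Notch4, an endothelial Notch receptor, had the highest vehicle difference of the 29 (0.70). Its log2 values were 6.09 with vehicle and 6.46 with metformin in WT, and 6.79 and 6.82 in KO, so both KO arrays were above both WT arrays. Dll4, the Notch ligand of sprouting tip cells, lay between 4.29 and 5.06 and was under the filter, with its highest value on the WT vehicle array.

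Of the lymphatic markers, Lyve1 was past the filter and Prox1 was not. Lyve1, a hyaluronan receptor of lymphatic endothelium that some macrophages also carry, had log2 values of 7.95 with vehicle and 6.97 with metformin in WT, and 6.52 and 7.12 in KO. The WT vehicle array was the highest by a wide margin, and the KO vehicle array was 2.69-fold below it (-1.43). Metformin gave -0.98 in WT and 0.60 in KO. Prox1, the transcription factor that sets lymphatic identity, ranged from 4.32 to 4.77, under the filter.

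**Figure D2:**
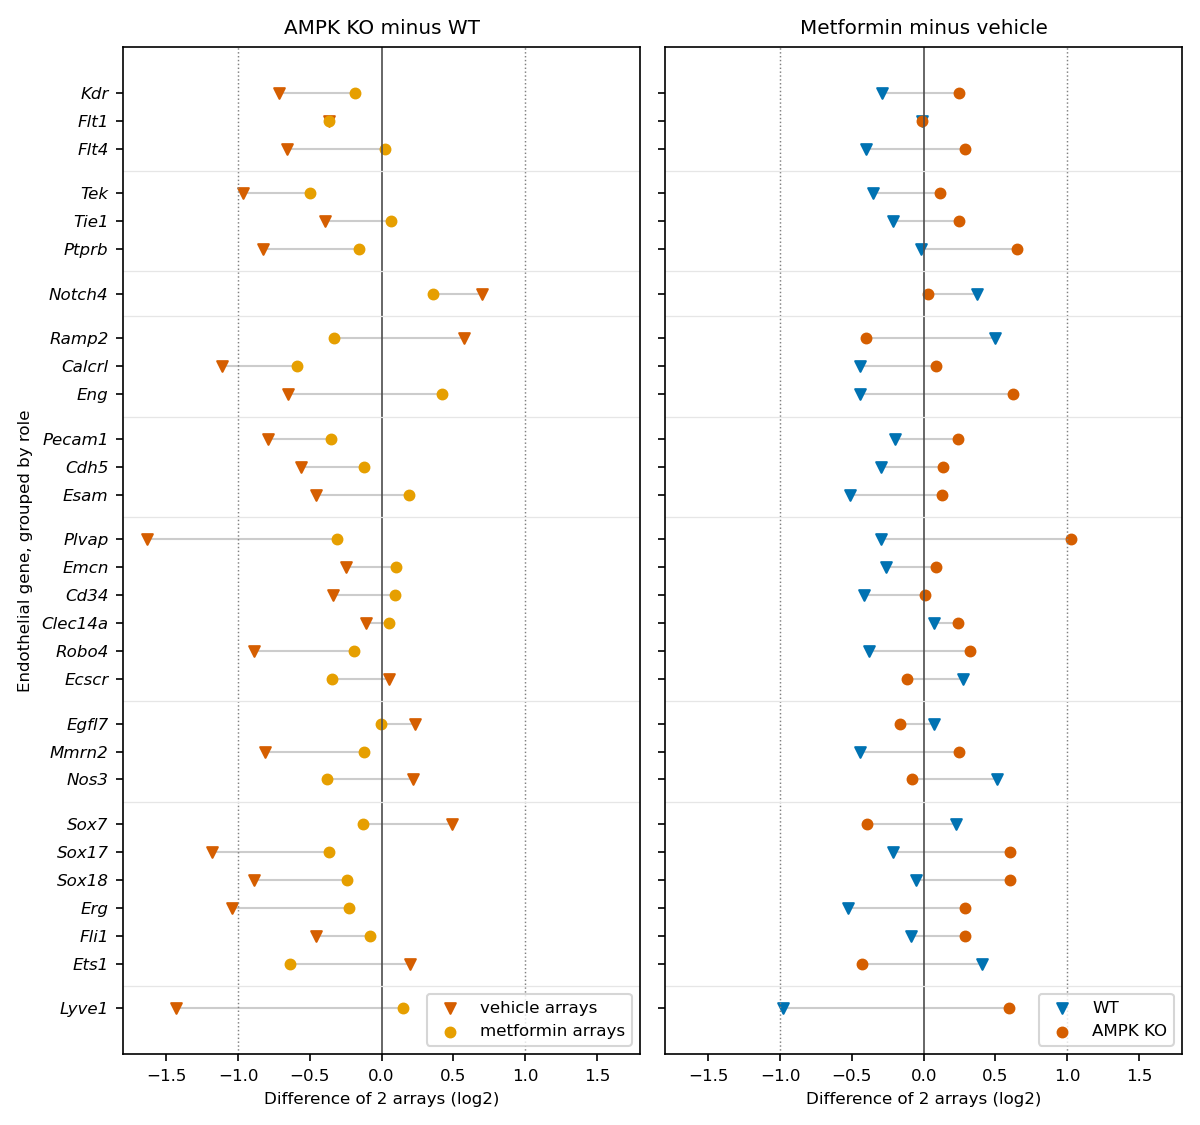
Differences between 2 arrays (log2) for the 29 endothelial genes, with KO minus WT on the vehicle and metformin arrays at left and metformin minus vehicle in WT and KO at right; dotted lines mark 2-fold and 1 array stands behind each group. Plvap, Lyve1, Sox17, Calcrl and Erg pass -1 on the vehicle arrays, and no gene does so on the metformin arrays.

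KO against WT under metformin showed smaller differences. The median of the 29 was -0.16 against 0.02 over all genes, a gap of -0.18. Of the 29, 20 were negative, where 46.86% of all genes were. The count past 2-fold was 0 in either direction, where 0.388% of all genes were lower and 0.532% higher. The lowest were Ets1 (-0.64), Calcrl (-0.59) and Tek (-0.50), and the highest were Eng (0.42), Notch4 (0.36) and Esam (0.19). Calcrl, Tek and Notch4 kept a difference of the same sign as on the vehicle arrays, and Eng, Esam and Ets1 did not. Of the 7 members above 0 on the vehicle arrays, only Notch4 stayed above 0. The 9 above 0 on the metformin arrays were Notch4, Flt4, Tie1, Eng, Esam, Emcn, Cd34, Clec14a and Lyve1. All of these but Notch4 were negative on the vehicle arrays. Many members thus changed sign between the 2 comparisons.

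Metformin against vehicle in WT gave a median of -0.21 over the 29 genes, where the median of all genes was -0.14. No member passed 2-fold (0 of 29 in either direction), and 0.929% of all genes were lower and 0.775% higher by that size. Lyve1 (-0.98), Erg (-0.53) and Esam (-0.52) were lowest. Nos3 (0.51), Ramp2 (0.50) and Ets1 (0.40) were highest. Of the 29, 17 lay below the median of all genes, a gap of -0.08 between the medians. With no filter 26 of 36 members lay below the median of all genes, with a gap of -0.22. The members' median was then -0.22 and that of all 22180 genes -0.0061. The wider gap thus came mostly from the median of all genes.

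Metformin against vehicle in KO gave a median of 0.24 over the 29 genes, where the median of all genes was 0.11. Plvap was the only member at least 2-fold higher (1 of 29, 3.45%), where 2.44% of all genes were, and 0 were 2-fold lower, where 0.613% of all genes were. The share of members past 2-fold was thus near that of all genes. After Plvap came Ptprb (0.65), Eng (0.62), Sox17 (0.60), Sox18 (0.60) and Lyve1 (0.60), and the lowest were Ets1 (-0.43), Ramp2 (-0.40) and Sox7 (-0.39). Both KO values of Sox17 and the KO metformin value of Ets1 were under the filter value. This comparison shares the KO vehicle array with KO against WT under vehicle, so the 2 sets of values are not separate evidence. The WT response likewise shares the WT vehicle array with it.

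The KO response minus the WT response had a median of 0.46 over the 29 genes and 0.26 over all genes. Lyve1 (1.58), Plvap (1.33) and Eng (1.07) exceeded 1, which is 3 of 29 (10.3%) where 11.2% of all genes did, and 0 of 29 were at -1 or less, where 3.61% of all genes were. Eng had log2 values of 7.90 with vehicle and 7.45 with metformin in WT, and 7.24 and 7.87 in KO, so its WT vehicle and KO metformin values were nearly equal and both stood above the other 2. Of the 29, 20 (68.97%) were lower with metformin in WT and higher in KO, as were 46.6% of all genes. Another 6 (20.7%) had the opposite pair of signs, as had 19.4% of all genes.

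**Figure D3:**
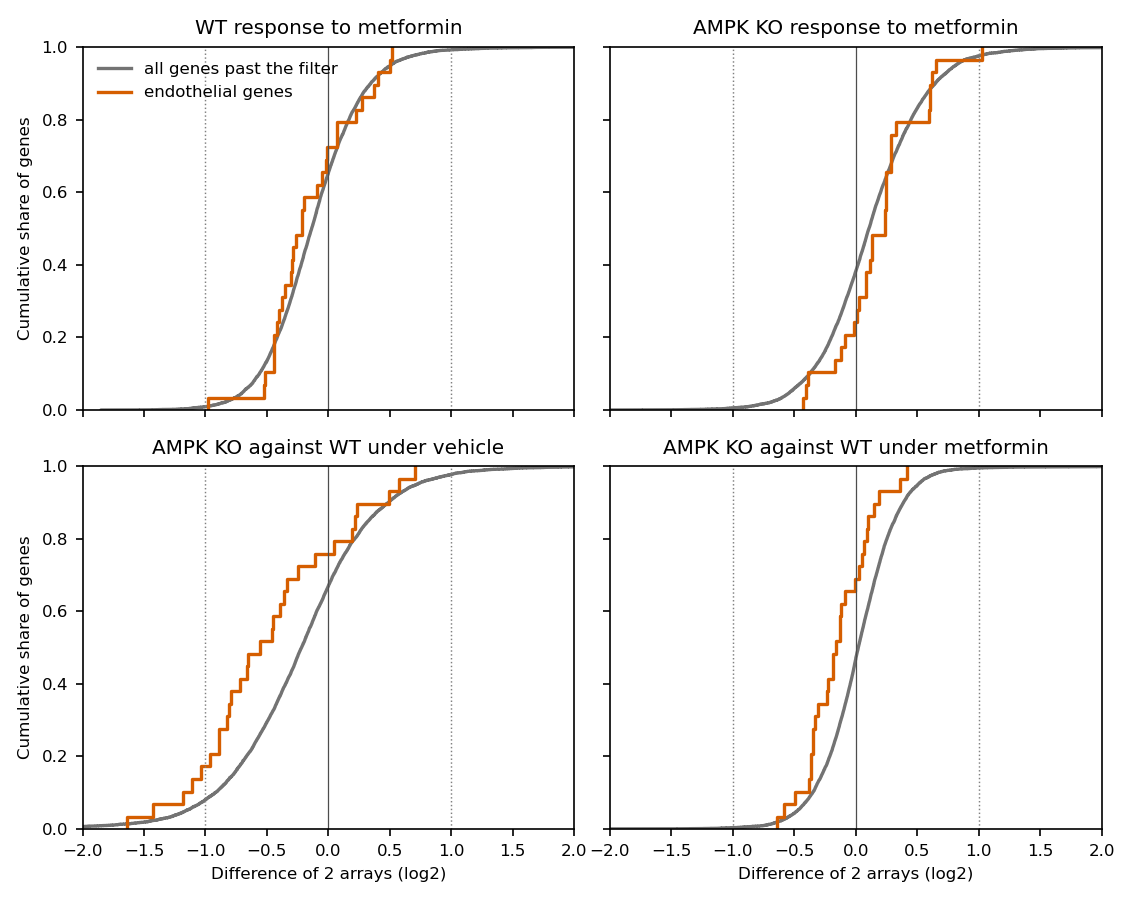
Cumulative share of genes by difference between 2 arrays (log2, horizontal axis limited to 2 in each direction), for the 29 endothelial genes and all 11090 genes past the filter, 1 array per group. The endothelial curve lies to the left of the grey curve over most of its length in both KO against WT panels (medians -0.56 against -0.22 under vehicle and -0.16 against 0.02 under metformin).

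Averages of 2 arrays against 2 were tested with limma, with genotype and metformin as terms and 1 residual degree of freedom. For the genotype term 0 of the 29 members passed the Benjamini-Hochberg adjusted p of 0.05 in limma (lowest adjusted p = 0.999), where 5 of 11090 genes (0.0451%) did, and the other limma variance models also called 0 members. At an unadjusted p under 0.05 in limma there were 4 members (13.8%), where 3.37% of all genes passed. These were Plvap (-0.97 ± 0.37, SE), Calcrl (-0.85 ± 0.31), Sox17 (-0.78 ± 0.33) and Tek (-0.73 ± 0.31), all lower in both KO arrays than in the WT array of the same treatment, with Sox17 again past the filter only through its WT vehicle value. For the metformin term limma called 0 of 29 members and 0% of all genes, and at an unadjusted p under 0.05 it gave 0 members and 32 of all genes. The test pools treatments, so a gene with opposite responses in the 2 genotypes enters its residual.

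Further vascular genes outside the list were lower mainly among those past the filter. They too were chosen with earlier results of these data known, so they are not separate evidence. Of 30 other endothelial and lymphatic genes, 16 passed the filter, with a median of -0.60 in KO against WT under vehicle, 3 at least 2-fold lower (18.75%, against 8.12% of all genes) and 0 higher (against 2.31%). Over all 29 measured genes of that list, including those under the filter, the median was -0.16. The 3 were Tspan18, a tetraspanin (-2.32), Mmrn1, a lymphatic matrix protein (-1.24, with a KO value of 4.67 under the filter value), and Adgrf5, an adhesion receptor (-1.08). The highest was Gpihbp1, the capillary anchor of lipoprotein lipase (0.74). Under metformin the same 16 genes had a median of -0.08.

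Ligands, coreceptors and targets of these pathways were closer to all genes. Of 30 listed, 21 passed the filter, with a median of -0.41 in KO under vehicle, 3 at least 2-fold lower (14.29%, against 8.12% of all genes) and 0 higher (against 2.31%). The 3 were the VEGF receptor 1 ligand Vegfb (-1.36), the VEGF coreceptor Nrp1 (-1.05) and the hypoxia-inducible factor Epas1 (-1.03). Vegfa, the main ligand of Kdr, differed by -0.20, and Adm, the ligand of the Calcrl and Ramp2 pair, was the highest at 0.46. Angpt1, the activating ligand of Tie2, was under the filter and ranged from 3.26 (KO vehicle) to 4.69 (WT vehicle).

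Genes of other cell types were set beside these on the vehicle arrays, where 8.12% of all genes were at least 2-fold lower. Pericyte genes, from the cells that wrap capillaries, had a median of -0.51 over 8 genes, 2 of these 8 at least 2-fold lower (Pdgfrb at -1.35 and Rgs5), and Ndufa4l2 highest (0.49). Smooth muscle genes had a median of -0.82 over 13 genes, 5 of them (38.5%) at least 2-fold lower, and their mean log2 level was 9.56 with vehicle and 9.65 with metformin in WT, and 8.75 and 9.30 in KO. Parietal cell genes had a median of -0.42 over 13 genes, all 13 of them negative, where 66.92% of all genes were, and 3 (23.1%) at least 2-fold lower. Fibroblast genes had a median of -0.20 over 10 genes, close to that of all genes, with 2 (20.0%) at least 2-fold lower. They were split, with 5 negative and 5 positive, from Dcn (-1.29) to Col1a1 (0.89). Mucous neck and pit cell genes had a median of 0.0009 over 8 genes, 1 of them (12.50%) at least 2-fold lower. Leukocyte genes had a median of -0.03 over 8, epithelial genes 0.23 over 5 and chief cell genes 0.02 over 5, with 0 at least 2-fold lower in each. Of the platelet markers, 2 of 7 passed the filter, Pf4 at 0.09 and Itgb3 at -0.16. The medians of endothelial, pericyte, smooth muscle and parietal cell genes were thus all below that of all genes on the same array, and the shares at least 2-fold lower were higher than the endothelial 17.24% in the pericyte, smooth muscle, parietal and fibroblast lists. The part of muscle, parietal cell or other tissue content in the endothelial values was not tested.

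**Figure D4:**
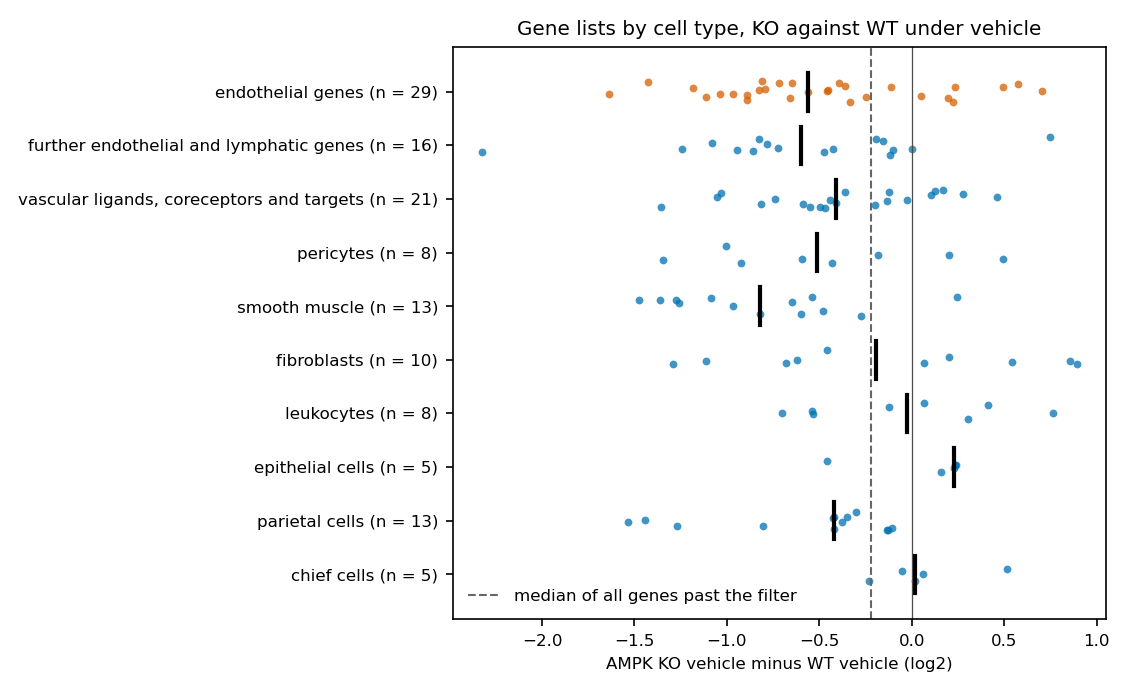
Difference of the KO vehicle array from the WT vehicle array (log2) for each gene past the filter in 10 lists, with a black bar at each list's median and a dashed line at the median of all 11090 genes (-0.22); points are spread vertically only to separate them. Endothelial (-0.56), pericyte (-0.51), smooth muscle (-0.82) and parietal cell (-0.42) medians lie left of the dashed line, and leukocyte (-0.03) and epithelial (0.23) medians to its right.

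Gene length and small RNAs moved with the same comparison. Among all protein-coding genes past the filter, those with a span of 24.8 kb or more (the median) had a median vehicle difference of -0.34 and shorter ones -0.11. The 14 longer endothelial genes had a median of -0.69 with 13 negative, and the 15 shorter ones -0.34 with 9 negative. Among all protein-coding genes, 4138 of 5274 longer ones were negative and 1133 positive. Of 5274 shorter ones, 3091 were negative and 2178 positive. Of the 7 members above 0, 6 were shorter than 24.8 kb, Ets1 being the exception (121.6 kb), while Sox17 (6.5 kb), Lyve1 (12.3 kb) and Plvap (14.1 kb) were short genes with large negative differences. On the same 2 arrays the median over 59 genes of small nucleolar RNAs was 1.13. The part of gene length or small RNA content in the endothelial values was not tested beyond the next comparison. Cyclic loess alone gave an endothelial median of -0.40 and one of -0.07 over all genes. With the trend on gene length also removed, they were -0.29 and 0.00, and 4 of 29 members (13.79%, against 4.07% of all genes) were 2-fold lower. These were Plvap, Lyve1, Sox17 and Sox18, while Calcrl (-0.69) and Erg (-0.74) were no longer past 2-fold.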

How the data were processed

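Gastric corpus RNA was labelled as biotinylated cDNA (Affymetrix WT Plus) and measured on 1 array per group. Per the submitters' processing notes, the authors made the deposited log2 values with Partek and RMA. The range of the values (0.77 to 14.02) is the basis for calling them log2. Tool versions and the annotation build are not stated in the labels. Median log2 values of the arrays were 4.40 to 4.55 over 41345 probe sets. Of these, 23521 name 1 gene, and 23328 had symbols updated through RefSeq (GRCm38.p6), which also gave gene spans.

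Differences of log2 values were computed in Python 3.11.15 (pandas 2.3.3, statsmodels 0.14.6) and called at an absolute value of 1. Genotype and metformin terms were fitted over 11090 genes with limma 3.58.1 in R 4.3.3, Benjamini-Hochberg adjusted over all of them. The number of arrays limits precision. Scripts were tested on simulated data. Members and lists were chosen with earlier results of these data known. Values on all 4 arrays were printed for members past 2-fold in a comparison, or with responses differing by 1.5 or more, or with the highest mean of a role lacking such members. Those of Ramp2 and Eng were added after their values were seen. Outside the list, up to 3 highest and 3 lowest genes per comparison were named, and Vegfa, Angpt1 and the platelet genes were added after their values were seen. Alternatives were other filters, cyclic loess, median centring, the mean of probe sets, a 1.5-fold rule, limma variance models and removal of the trend on gene length (lowess, span 0.3).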

Additional observations from a re-analysis of the deposited data

Results flagged for a closer look

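The median responses to metformin of the endothelial genes had opposite signs in the 2 genotypes. The median responses over all genes did too (-0.14 in WT and 0.11 in KO). The KO response exceeded the WT response by over 1 for 3 of 29 members (10.3%), each with opposite signs. It did so by 1 or more for 11.2% of all genes. With 1 array behind each group, these differences were not tested. Each gene's difference of responses equals its KO against WT difference under metformin minus that under vehicle. It is thus not separate evidence from those comparisons. The median of the KO response minus the WT response over 29 genes was 0.46, from responses with medians of -0.21 in WT and 0.24 in KO. For Lyve1 it was 1.58 (-0.98 in WT and 0.60 in KO), for Plvap 1.33 (-0.30 and 1.03) and for Eng 1.07 (-0.44 and 0.62). The median over all genes was 0.26. Opposite signs were common, with 20 of the 29 members (68.97%) and 46.6% of all genes lower in WT and higher in KO, and 6 members (20.7%) and 19.4% of all genes the reverse. After cyclic loess the members' median was 0.26 (0.09 over all genes) and Eng was at 0.79. With the length trend also removed, the members' median was 0.0621 (0.0034 over all genes). Eng was then at 0.62 and Plvap at 0.99, so Lyve1 (1.29) was the only one of the 3 still above 1.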

How the results depend on the processing

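In KO against WT under vehicle, members at least 2-fold lower were 3 of 11 with the filter at the 75th percentile (27.27%, against 10.37% of all genes). They were 3 of 29 after cyclic loess (10.34% against 5.07%) and 8 with arrays centred on their medians (27.59% against 12.25%). At 1.5-fold 14 were lower (48.28% against 24.44%) and 1 was higher (3.45% against 7.44%). The median of members was -0.29 with the length trend removed after cyclic loess. It stayed below that of all genes under each alternative run, by -0.29 to -0.49. The gap was widest with no filter, where the median was -0.46 in members and 0.03 in all genes. Calcrl and Erg were short of 2-fold after cyclic loess (-0.89 and -0.97) and with the length trend removed (-0.69 and -0.74). In KO against WT under metformin, 2 members (6.90%) were lower at 1.5-fold, against 2.67% of all genes. For the KO response, the median was 0.12 with no filter, 0.12 after cyclic loess and 0.0439 with the length trend removed. Its count of higher members was 0 under the last 2 settings (Plvap 0.88 and 0.85), where 1.76% and 1.45% of all genes were higher. At 1.5-fold it was 6 (20.69%, against 12.44% of all genes). For the WT response, the median was -0.0758 with the length trend removed. In that response 1 member was lower with centring (3.45%, against 1.42% of all genes) and 1 at 1.5-fold (3.45% against 9.06%). The difference of responses had a median of 0.26 after cyclic loess, with 2 members above 1 (Eng 0.79), and 0.0621 with the length trend removed, with 1 above 1 and 1 below -1 (Plvap 0.99, Eng 0.62, Ets1 -1.04). At 1.5-fold 11 were higher and 4 lower (28.55% and 9.63% of all genes). Leaving out Sox17, chosen after the data were seen, moved no median or count by over 1.5 times. The causes were not tested. Limma called 0 members in each setting run. No paired analysis was possible because each group has 1 array, and leaving out an array removes a group.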

Other observations

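Esm1, a secreted proteoglycan of VEGF-stimulated endothelial cells, had log2 values of 6.09 and 6.15 in WT (vehicle, then metformin) and 6.06 and 4.92 in KO. It was thus low on the KO metformin array alone, and that value lies under the filter value, so its difference of -1.15 from KO vehicle is not read as a fold. In the same order, Tspan18 had 8.04, 6.93, 5.71 and 6.90, with differences of -1.10 with metformin in WT and 1.18 in KO, and its 2 metformin values were nearly equal. Epas1 was at 8.30, 7.99, 7.27 and 8.33, so its KO metformin value was near the WT vehicle value.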
